A study of Macaca mulatta with 4 samples.

Results

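Regions of rhesus macaque chromatin with a DNase I hotspot in both gynogenetic libraries but in only 1 of 2 androgenetic ones are described here. They were found by merging overlapping or touching DNase I hotspots of all 4 libraries on the 20 autosomes and keeping merged regions that both GG libraries and exactly 1 AG library had called. This gave 8295 members among 222776 merged regions, 3.72% of all. They held 18.1 Mb, or 0.675% of the autosomes as measured to the last hotspot of each chromosome. The members were chosen by presence or absence of the deposited hotspots, so counts, widths and scores of members are descriptions and were not tested.

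The embryos, of Macaca mulatta, were morulae, balls of cells that form before the blastocyst, and their open chromatin had been profiled by DNase-seq. AG stands for androgenetic embryos, whose nuclear genome comes from sperm alone, and GG for gynogenetic embryos, whose nuclear genome comes from the oocyte alone. Each group had 2 libraries, and all 4 shared a digestion of 5 min at 37 °C with DNase I at 40 U/ml. The labels do not say how the uniparental embryos were made, how many went into a library or from which donors, nor that replicates were separate embryos or cultures, so a p-value over libraries measures only the spread between these samples.

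DNase I cuts DNA that is not wrapped tightly into nucleosomes more readily than packed DNA. A hotspot is a stretch with more cuts than its surroundings, and promoters, enhancers and other sites bound by regulatory proteins are typical places for one. Imprinted genes are expressed from the paternal or the maternal copy alone, according to marks laid down in sperm and oocyte, and embryos with genomes of 1 parent only are used to tell the copies apart. Whether chromatin seen open on maternal genomes is also open on paternal ones is the question on which the members bear, since 1 paternal library has the region and the other does not. A list of this kind cannot separate a region that is closed in an AG library from one that is open and was not called there.

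The lists were of unequal length. On the autosomes AG replicate 1 had 64712 hotspots, AG replicate 2 had 85269, GG replicate 1 had 93089 and GG replicate 2 had 84748. They covered 67.8, 84.3, 102 and 93.1 Mb. Since no read counts come with the lists, the depth behind a region is unknown and it has no counting interval. Sequencing batches, if any, could not be told from the labels, and their part in the results was not tested. Positions are those of the rheMac8 build, counted from 1. No genome or annotation of that build was used here, so regions are named by position and not by gene, and their sequences are not shown.

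Members lacking AG replicate 2 were the more numerous kind. They numbered 4519 (54.5% of members), against 3776 (45.5%) lacking AG replicate 1, although AG replicate 2 had the longer list by 1.32 times. The former were 2.03% and the latter 1.69% of all merged regions, which add up to the 3.72% of both kinds. The ratio of members lacking AG replicate 1 to members lacking AG replicate 2 was thus 0.836. With the other lists shortened by score to the 64712 hotspots of AG replicate 1 it was 0.595, and at equal covered length it was 0.549. In both settings AG replicate 2 lost hotspots and AG replicate 1 did not. Such a loss lowers this ratio by construction, so the direction of the change is not a result. AG replicate 1 reached 52.5% of the 33663 regions found in both GG libraries, and AG replicate 2 reached 50.3%.

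Most regions that were missing from a single library were missing from an AG library. Of 12032 regions called in exactly 3 libraries, members made up 68.9%. The mirror set, regions in both AG libraries and exactly 1 GG library, held 3737, so members were 2.22 times as many. The GG lists are longer than that of AG replicate 1, and the ratio was 2.0 at equal number of hotspots and 1.62 at equal covered length. Read against the regions shared within a group, 24.6% of the regions in both GG libraries were members, 39.1% were also in both AG libraries and 36.3% were in neither. Of the 21622 regions in both AG libraries, 17.3% belonged to the mirror set and 60.9% were in both GG libraries.

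**Figure D1:**
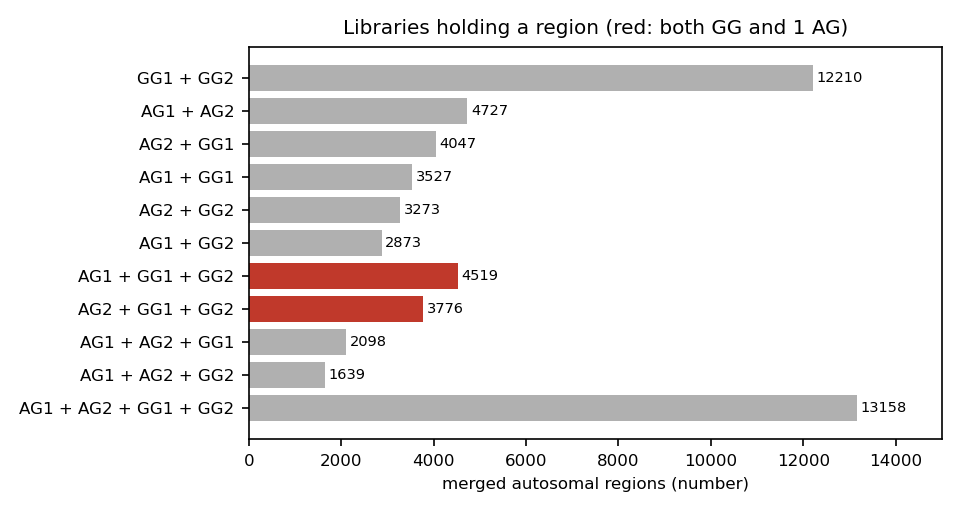
Number of merged autosomal regions (horizontal axis) held by each combination of 2 or more libraries, with AG1, AG2, GG1 and GG2 standing for AG and GG replicates 1 and 2. Members, in red, numbered 4519 with AG replicate 1 and 3776 with AG replicate 2, and both bars exceed those of the mirror set (2098 and 1639).

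In breadth the members stood between regions of the GG libraries alone and regions of all 4 libraries. Their median width was 1948 bp, with quartiles of 1420 and 2635 bp and a range of 136 to 11986 bp. Regions in both GG and no AG library had a median of 1376 bp, the mirror set 1786 bp, and regions in all 4 libraries 2927 bp. A merged region grows with each hotspot joined to it, so wider regions are partly a product of the merging. Members lacking AG replicate 1 (1912 bp) and those lacking AG replicate 2 (1985 bp) were close in width.

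Width also went with how many AG libraries held a region. Among regions in both GG libraries, members made up 14.5% of those under 1 kb, 28.6% of those of 1 to 2 kb, 28.9% of those of 2 to 3 kb, 20.5% of those of 3 to 4 kb and 13.5% of wider ones. The share with no AG hotspot dropped over the same classes from 81.4% to 5.81%, and the share with both AG libraries rose from 4.17% to 80.7%. Members were most frequent at middle widths, where neither of the other outcomes was near its highest. AG hotspots count in the merged width, so this relation is partly a product of the merging.

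By median, AG hotspots covered less of a member than GG hotspots. GG replicate 1 hotspots covered a median of 1166 bp of a member (70.5% of its width) and GG replicate 2 hotspots 1144 bp (67.1%). The AG hotspots covered 1028 bp (56.0%) where AG replicate 1 was present and 1002 bp (55.2%) where AG replicate 2 was. The mirror set showed the reverse: AG replicates 1 and 2 covered 1075 bp (65.4%) and 1081 bp (66.1%). There GG replicates 1 and 2, where present, covered 981 bp (58.7%) and 969 bp (55.1%). Smaller coverage thus went with the group of which the rule asks 1 library. In single members the order varied: AG covered fewer bases than both GG libraries in 4143 members (49.9%) and more than both in 1924 (23.2%). A library mostly held a member as 1 hotspot: over 1 hotspot occurred in 4.36% of members for AG replicate 1, 3.92% for AG replicate 2, 5.47% for GG replicate 1 and 6.10% for GG replicate 2.

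The 3 libraries of a member usually overlapped at the same bases. At least 1 bp was common to all 3 hotspot lists in 84.0% of the members with AG replicate 2 (3170 of 3776) and in 87.5% of those with AG replicate 1 (3953 of 4519). The remaining 606 and 566 members were joined by hotspots that overlapped or touched only in pairs. In 1 of the latter the AG hotspot overlapped neither GG library. Of the bases called by AG replicate 1 in members, 51.0% were called in both GG libraries, 30.5% in 1 of them and 18.5% in neither. For AG replicate 2 the shares were 47.3%, 31.9% and 20.8%. The AG hotspot lay wholly inside bases called in GG in 45.9% and 42.6% of members.

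The deposited score, whose scale is not given, was used as a rank within each list. A member's best hotspot had a median percentile of 71.8 in GG replicate 1 (score 6.73) and 69.2 in GG replicate 2 (score 6.59). In its AG library the median percentile was 57.6 in AG replicate 1 (score 5.85) and 59.0 in AG replicate 2 (score 5.50). The mirror set had the groups exchanged, with medians of 64.4 and 68.3 in AG replicates 1 and 2. In GG replicates 1 and 2 its medians were 57.3 and 54.9. The lower percentiles thus went with the group of which the rule asks 1 library. Regions in all 4 libraries ranked at 88.8 and 88.3 in the GG lists and at 83.5 and 86.1 in the AG lists. Regions in both GG and no AG library ranked at 59.2 and 56.7. In each GG list, members therefore lay between these classes, and in each AG list they lay below the regions shared by all libraries.

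Members occurred at nearly every level of the GG scores. In the lowest decile of GG replicate 1, 24.8% of the regions held by both GG libraries were members. The share peaked at 30.4% in the sixth decile and was 14.98% in the top decile. For GG replicate 2 it was 25.5% in the lowest decile, 30.3% in the seventh and 14.0% in the top decile. Over the same range the share with no AG hotspot fell from 63.5% to 9.71% and the share with both AG libraries rose from 11.7% to 75.3% by GG replicate 1 score. Presence in exactly 1 AG library thus changed much less with GG score than presence in none or in both.

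**Figure D2:**
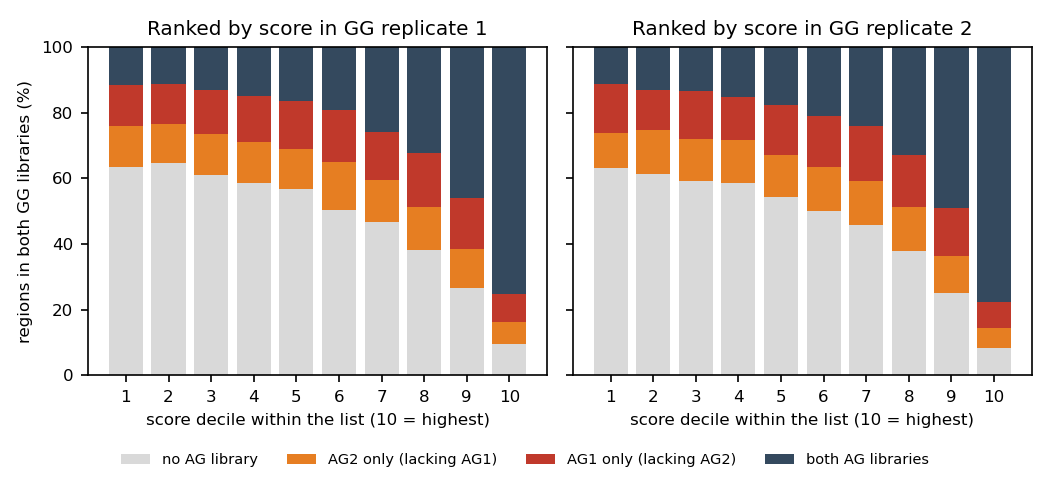
Regions in both GG libraries by score decile in GG replicate 1 (left) and GG replicate 2 (right), split by the AG libraries that also held them (percent of regions in the decile). The orange and red parts together are the members, 24.8% of the lowest and 14.98% of the highest decile of GG replicate 1.

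The score of the AG hotspot was also lower in members than in regions in all 4 libraries. Among regions held by both GG libraries and AG replicate 1, 57.5% of those in the lowest AG score decile were members, lacking AG replicate 2, and 6.34% of those in the highest. Among regions held by both GG libraries and AG replicate 2, the shares were 50.7% and 5.93%. Over the same regions, ranking by GG replicate 1 score gave 51.2% and 10.1% with AG replicate 1, and 51.7% and 7.98% with AG replicate 2. Shares by GG score thus dropped nearly as far once regions with no AG hotspot were set aside. High AG scores did not exclude membership: 305 members with AG replicate 1 and 334 members with AG replicate 2 had an AG hotspot in the top decile of its list.

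The members with the lowest AG scores, and the regions of all 4 libraries whose weaker AG score was lowest, stand on either side of the rule. The lowest AG score in a member was 4.13, which is also the lowest in the AG replicate 2 list, at chromosome 13 from 72047194 to 72049534. That region scored 4.41 and 7.05 in the GG libraries. Next were chromosome 13 from 29034813 to 29037494 (AG score 4.14) and chromosome 15 from 50496726 to 50499503 (4.14). On the other side, a region in all 4 libraries at chromosome 3 from 124815971 to 124818535 had scores of 4.41 and 4.13 in AG replicates 1 and 2 and of 9.70 and 8.84 in the GG libraries. It was followed by chromosome 16 from 30200196 to 30201023 (4.50 and 4.14) and chromosome 19 from 17224809 to 17227209 (7.36 and 4.14).

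Members with high ranks in all 3 libraries were few. Above the 90th percentile in each of the 3 lists there were 174 members (2.10%), 98 lacking AG replicate 1 and 76 lacking AG replicate 2. For regions in all 4 libraries, 14.7% were above that percentile in all of them, and for the mirror set 1.499% in all 3. Of the 174 members, 23 (13.2%) had a hotspot of the missing AG library within 1 kb, close to the 13.7% of all members.

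The member with the highest ranks lay at chromosome 14 from 42803328 to 42804643. Its scores were 388 in AG replicate 2, 258 in GG replicate 1 and 232 in GG replicate 2, while the nearest AG replicate 1 hotspot was 16.8 kb away. Its percentiles in these lists were 99.98, 99.97 and 99.97. No other member came close to it in score, and the next by this ranking was chromosome 2 from 107092375 to 107093964, with 65.7, 50.9 and 47.1 in the same libraries.

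Close by, at chromosome 2 from 107101522 to 107103109, lay a further member lacking AG replicate 1, with 56.7 in AG replicate 2, 52.4 in GG replicate 1 and 36.9 in the other GG library. A hotspot of AG replicate 1 ended or began 439 bp from it. The same chromosome held a member from 100773999 to 100775074 (scores 69.7, 51.3 and 43.5), with AG replicate 1 at 576 bp. In these 2 members absence from AG replicate 1 was thus absence from the called stretch and not from its surroundings.

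The other high-ranked members lacking AG replicate 1 were narrow. Scores at chromosome 19 from 6036849 to 6037374 were 70.8 (AG replicate 2), 39.4 and 41.3 (GG). Chromosome 7 from 60764902 to 60765724 had 50.5, 38.0 and 36.5. Chromosome 17 from 8952840 to 8953526 had 41.7, 46.6 and 42.0. These spanned 526, 823 and 687 bp, below the lower quartile of members. The eighth was chromosome 13 from 103338174 to 103339358 (39.3, 33.0 and 32.5 over 1185 bp).

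High-ranked members lacking AG replicate 2 had lower GG scores than those lacking AG replicate 1, with 1 exception. That first one was chromosome 16 from 30176552 to 30179824, with 28.9 in AG replicate 1, 73.5 in GG replicate 1 and 55.4 in GG replicate 2. GG replicate 1 covered all 3273 bp of it and AG replicate 1 only 869 bp, and a hotspot of AG replicate 2 lay 225 bp away. Chromosome 1 from 92843055 to 92844727 had 32.5, 21.7 and 29.9 in AG replicate 1, GG replicate 1 and GG replicate 2. There the nearest AG replicate 2 hotspot was 41.4 kb off, the longest such distance among the 16 high-ranked members.

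Chromosome 6 from 94176457 to 94177631 followed with 22.6 in AG replicate 1, 20.9 in GG replicate 1 and 22.5 in GG replicate 2. Scores of 14.9, 20.1 and 22.0 were found at chromosome 4 from 138148311 to 138149886. At chromosome 19 from 1415792 to 1419725 they were 14.8, 19.1 and 20.1, and here AG replicate 1 alone spanned all 3934 bp, more than either GG library. Among the 16 high-ranked members, AG covered more bases than both GG libraries in 7 and fewer than both in 3. The last 3 of this rank were chromosome 1 from 46003808 to 46004774, chromosome 18 from 15763620 to 15766177 and chromosome 7 from 68997956 to 69001564, with AG replicate 1 scores of 15.6, 14.2 and 12.7.

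The widest members were long GG stretches with a shorter AG call. Chromosome 7 from 84888467 to 84900452 spanned 11986 bp, of which GG replicate 1 covered 11558 bp, GG replicate 2 covered 9653 bp and AG replicate 1 covered 1862 bp. Its scores were 25.5 and 19.5 in GG and 5.68 in AG replicate 1. Chromosome 17 from 19855301 to 19865360 had 6955 and 8299 bp in the GG libraries and 2388 bp in AG replicate 1. Chromosome 14 from 111762764 to 111771789 had 7204 and 7463 bp in GG and 3960 bp in AG replicate 2. In each of the 3, each GG library covered more bases than the AG library.

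A hotspot of the missing AG library was often nearby. It lay within 500 bp of 6.11% of members, within 1 kb of 13.7% (1140 of 8295), within 5 kb of 43.5% and within 50 kb of 94.0%. The median distance was 6926 bp for members lacking AG replicate 1 and 6155 bp for those lacking AG replicate 2. In the mirror set the missing GG library was nearer, with 17.9% within 1 kb and a median of 4838 bp. The GG lists also cover more of the autosomes (102 and 93.1 Mb) than the AG lists (67.8 and 84.3 Mb). Distances were not corrected for this. For regions in both GG and no AG library, AG replicate 1 was within 1 kb of 9.76% and AG replicate 2 of 9.90%.

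Some members missed being regions of all 4 libraries by a base or so. At chromosome 7 from 61227311 to 61231333 a hotspot of AG replicate 2 began or ended 1 bp beyond the member. The same held for AG replicate 1 at chromosome 8 from 30127311 to 30128617, and for AG replicate 2 at a distance of 2 bp at chromosome 8 from 47756789 to 47759986. In all, 96 members (1.16%) had the missing library within 100 bp. When hotspots within 150 bp were merged, members numbered 8486.

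**Figure D3:**
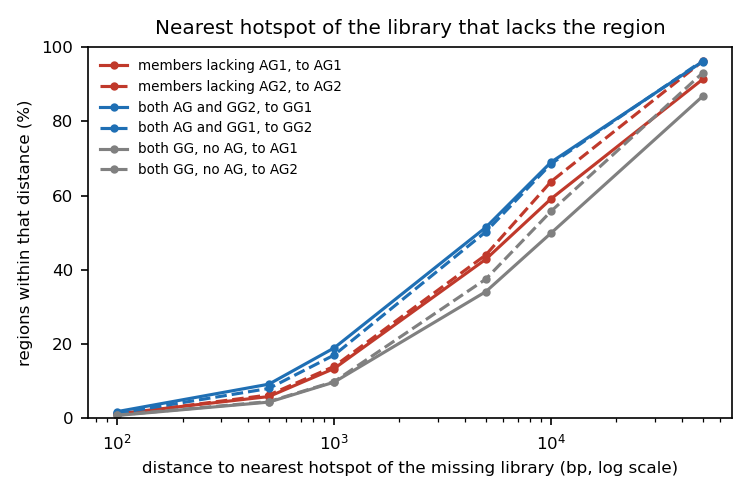
Percent of regions (vertical axis) whose nearest hotspot of the missing library lies within the distance on the log-scaled horizontal axis. Members (red) lie between the mirror set (blue) and regions in both GG and no AG library (grey) at 1 kb, with 13.4% and 14.0% against 17.1% to 18.98% and 9.76% to 9.90%.

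The surroundings of members, which the rule did not use, were rich in hotspots of every library. Within 10 kb on each side and outside members, hotspots covered 5.07% of bases in AG replicate 1, 5.61% in AG replicate 2, 7.82% in GG replicate 1 and 7.14% in GG replicate 2. Divided by the share of the autosomes that each library covers, this was 2.0, 1.78, 2.05 and 2.05 times the autosomal level. That share counts the members, while the flanks leave them out. Members held 7.75% and 4.95% of the bases covered by AG replicates 1 and 2. For GG replicates 1 and 2 they held 12.2% and 12.7%. By construction, the division therefore lowers the GG values more than the AG values. Both GG libraries were above both AG libraries, but AG replicate 1 lay nearer to the GG libraries than to AG replicate 2. On the log2 scale the AG libraries averaged 0.92 ± 0.12 and the GG libraries 1.04 ± 0.00025 (SD, n = 2 each). The difference was -0.12 (AG minus GG). A two-sided exact permutation test gave p = 0.333, the smallest that 2 libraries against 2 can reach.

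This difference did not hold across settings. It was -0.20 in flanks of 5 kb and 0.060 in flanks of 50 kb. The sign at 50 kb cannot show which group was higher, since the divisor counts members and the flanks do not. The difference was -0.19 at equal covered length, -0.49 without division by the covered share, and -0.036 where a library had to cover 50% of a region (exact permutation p = 1). It was 0.016 without GG replicate 2, -0.0042 without GG replicate 1, -0.14 without AG replicate 1 and -0.073 without AG replicate 2. These 4 values are not those of members alone. Leaving out an AG library gave 16811 or 17593 regions, which take in regions of all 4 libraries (13158 in the full lists). Leaving out a GG library takes in pairs of 1 AG and 1 GG library. With regions in both GG but not both AG libraries removed from the flanks, which takes out GG hotspots by construction, it was 0.21. The same quantity, in flanks outside the class in question, was 0.13 in the mirror set, -0.15 around regions in both GG and no AG library, and -0.018 around regions in all 4 libraries.

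Both AG libraries were enriched around members that they lacked, but AG replicate 2 less so than around members that it held. In the 10 kb flanks of members lacking AG replicate 2, AG replicate 2 stood at 1.68 times its autosomal level and AG replicate 1 at 1.996 times. In those of members lacking AG replicate 1, AG replicate 2 stood at 1.95 times and AG replicate 1 at 2.06 times. AG replicate 1 was the higher AG library on both sides, by a log2 difference of 0.25 where AG replicate 2 lacked the member and 0.081 where AG replicate 1 itself lacked it. The GG libraries lay between 2.06 and 2.10 times around both kinds.

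These comparisons between AG libraries have 1 library on a side and no test. The 0.081 did not keep its direction: it was -0.0021 in the higher-scoring 50% of each list, -0.017 at equal number of hotspots and 0.0034 at equal covered length. The 0.25 stayed above 0 under those settings, at 0.23, 0.17 and 0.16. Without division by each library's covered share both turned, to -0.23 and -0.062, since the AG replicate 2 list covers more of the genome.

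Coverage was high just beyond the members in all 4 libraries. Between 1 and 2 kb from the edge of members lacking AG replicate 2, the GG libraries reached 3.12 and 3.17 times their autosomal level, AG replicate 1 2.73 times and AG replicate 2 2.06 times. Around members lacking AG replicate 1, the GG libraries reached 3.09 and 3.04 times, AG replicate 1 2.61 times and AG replicate 2 2.45 times, and both AG libraries were slightly higher still at 2 to 3 kb, at 2.64 and 2.54 times. Closer than 1 kb, all libraries were between 0.797 and 1.23 times their level, in a zone where a hotspot that overlapped or touched the member would have been merged into it. At 40 to 50 kb all values had come down to between 1.496 and 1.67 times.

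**Figure D4:**
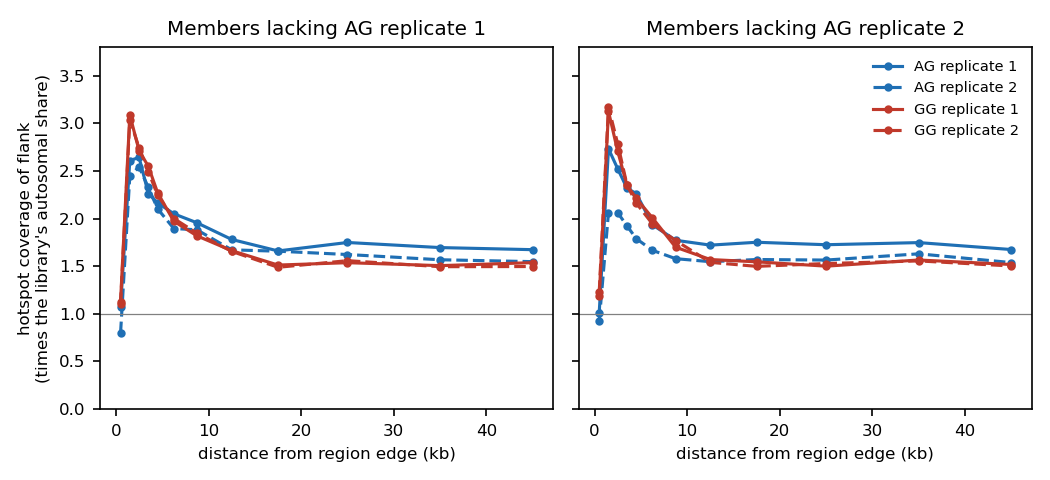
Hotspot coverage of the flanks (vertical axis, times the share of the autosomes that the library covers; 1 marks the autosomal level) against distance from the edge of members in kb. At 1 to 2 kb AG replicate 2 (dashed blue) reaches 2.06 times around members lacking AG replicate 2 and 2.45 times around members lacking AG replicate 1.

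Members were spread over most of the genome. Of 2683 windows of 1 Mb, 80.8% held at least 1 member, and the windows with a member had a median of 3. Windows with at least 10 members numbered 110 and held 14.9% of members. The fullest was chromosome 3 from 126000001 to 127000000, with 17 members, 11 lacking AG replicate 1 and 6 lacking AG replicate 2, beside 19 regions in all 4 libraries. Windows with 15 members each started at chromosome 4 position 34000001, chromosome 5 position 139000001, chromosome 10 position 33000001 and chromosome 16 position 50000001. In the last of these, 12 of the 15 lacked AG replicate 2 although that library had 77 hotspots there and AG replicate 1 had 58.

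Members often had a region of all 4 libraries in their neighbourhood. One lay within 10 kb of 25.4% of members and within 50 kb of 58.7%, with a median distance of 34.7 kb. For regions in both GG and no AG library the median was 58.4 kb and 19.6% lay within 10 kb. The mirror set stood nearer, at a median of 30.6 kb. Another member lay within 10 kb of 18.6% of members. Of the members lacking AG replicate 2 whose nearest member was within 10 kb, 58.2% had a neighbour that also lacked AG replicate 2. Of those lacking AG replicate 1, 49.9% had a neighbour that also lacked AG replicate 1. Both shares were slightly above those of all members, 54.5% and 45.5%.

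By chromosome, the share of both-GG regions that were members moved little. It ran from 21.2% on chromosome 19 to 26.6% on chromosome 8. The share in both AG libraries ran over the same chromosomes from 30.2% on chromosome 5 to 60.6% on chromosome 19, and the share in neither AG library from 18.3% on chromosome 19 to 47.3% on chromosome 5. Where fewer both-GG regions had no AG hotspot, more had both, while the members between them kept nearly the same share.

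Density of members followed the density of hotspots in general. Chromosome 19, counterpart of the gene-dense human chromosome 19, had 6.54 members per Mb, chromosome 16 had 5.30, and the autosomes together 3.10. The sparsest were chromosome 5 with 1.99, chromosome 18 with 2.08 and chromosome 17 with 2.21. Chromosome 19 held 4.23% of members, with an exact binomial 95% interval of 3.81 to 4.69% that covers counting only, against 7.63% of regions in all 4 libraries, 7.12% of the mirror set and 2.48% of regions in both GG and no AG library. Chromosome 5 held 4.56% of members (4.12 to 5.03%), 3.85% of regions in all 4 libraries, 3.88% of the mirror set and 6.503% of regions in both GG and no AG library. Of all merged regions, chromosome 19 held 3.10% and chromosome 5 held 6.17%. Against that share, members were more frequent on chromosome 19 and less frequent on chromosome 5. The order on chromosome 19 depends on the background. Of regions in both GG libraries, members were 21.2% on chromosome 19 and 22.5% on chromosome 5, both below the 24.6% of all autosomes. Members outnumbered the mirror set on all 20 autosomes, from 1.32 times on chromosome 19 to 3.13 times on chromosome 8.

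Which AG library lacked the member varied by chromosome. Members lacking AG replicate 1 were the more numerous kind on chromosomes 5, 8 and 10 only, at ratios of 1.07, 1.15 and 1.08, and chromosome 18 had equal numbers. The lowest ratios were 0.574 on chromosome 14, 0.624 on chromosome 15, 0.645 on chromosome 7 and 0.650 on chromosome 13. The AG lists differed over these chromosomes too. AG replicate 2 had 1.75 times as many hotspots as AG replicate 1 on chromosome 5 and 1.42 times on chromosome 8, but 1.14 times on chromosome 14 and 1.18 times on chromosome 15. Over the 20 autosomes the 2 ratios had a Pearson r of 0.641 and a Spearman rho of 0.642, a description only, since both ratios come from the same AG lists and chromosomes are not replicates. Chromosomes 8, 10 and 19 lay above the others for their ratio of hotspots.

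**Figure D5:**
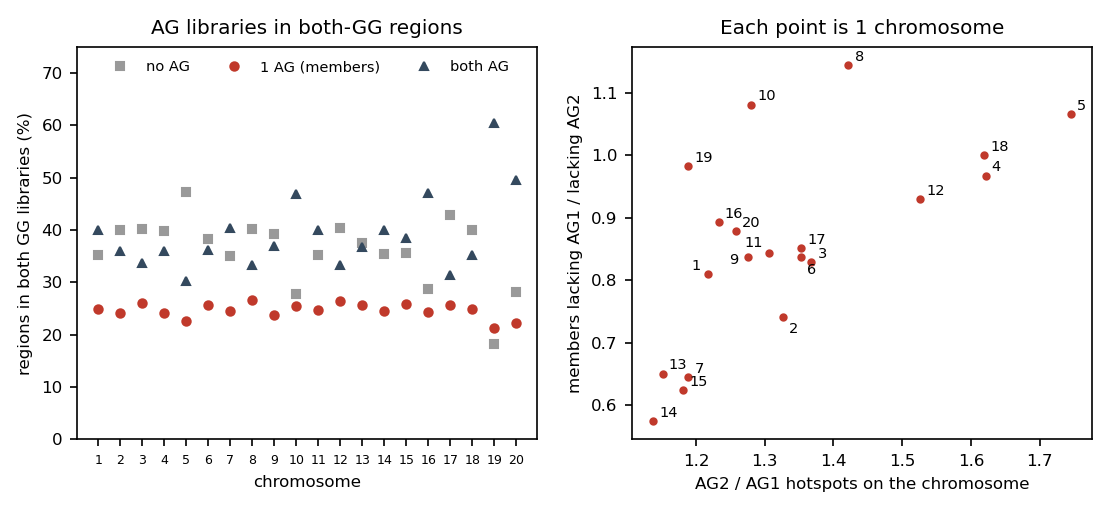
Left: percent of regions in both GG libraries that were in no, 1 or both AG libraries, by autosome; members (red) stay between 21.2% and 26.6%. Right: ratio of members lacking AG replicate 1 to members lacking AG replicate 2 against the ratio of AG replicate 2 to AG replicate 1 hotspots, 1 point per autosome, from 0.574 on chromosome 14 to 1.15 on chromosome 8.

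Membership depended on where the lists end. In 1 setting the other lists were shortened to the 64712 hotspots of AG replicate 1. Then 6090 of the 8295 members (73.4%) kept a hotspot in both GG and exactly 1 AG library. A further 5.59% kept both GG but lost the AG hotspot, and 16.8% became pairs of 1 AG and 1 GG library. In their place, 580 regions of all 4 libraries lost 1 AG hotspot and joined the members. At equal covered length, 4798 (57.8%) of the members stayed and 601 regions came from those in all 4 libraries. In the higher-scoring 50% of each list 3058 (36.9%) stayed, and 1961 regions that had been in all 4 libraries made up 39.1% of the set. Regions were followed here within their original borders. The shorter the lists, the larger was the share of members drawn from regions that the full lists placed in all 4 libraries.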

How the data were processed

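Each of the 4 libraries has its own hotspot list, which the authors deposited as coordinates plus a score of unstated scale, named for a false discovery rate of 0.01. Tools named in the submitters' processing notes, which state no order, are deepTools 3.3.1, SAMtools, Bowtie2 and Trim Galore, and rheMac8 is the build; no source used here names the hotspot caller. Scores were ranked within a list only. Autosomal hotspots were merged when overlapping or touching, and a library held a region when it had a hotspot in it. Flank coverage was counted within 10 kb, outside members (for another class of regions, outside that class). It was divided by the covered share of the whole autosomes, members included, and tested on the log2 scale by an exact permutation test. Medians, shares and distances carry no test. Named regions were, by rule, the 8 members per missing AG library with the highest lowest percentile, the 5 fullest windows, and 3 each of the lowest-scoring, nearest and widest members and of regions just outside the rule. Members, lists and rules were chosen with earlier results of these data known. Merging, flank and distance steps were tested on simulated data. Alternatives were shortened lists, a coverage minimum, merging distance, hotspot length, left-out libraries, flank size and scaling. Annotation and sequences were not analysed, for want of a rheMac8 reference. Software was scipy 1.17.1, pandas 2.3.3, numpy 2.4.6, matplotlib 3.10.9 and Python 3.11.15.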

Additional observations from a re-analysis of the deposited data

Results flagged for a closer look

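Chromosome X, which lay outside the rule for members, held 8 regions with a hotspot in both GG libraries and exactly 1 AG library among 193 merged X regions. Chromosome X had far fewer merged regions than any autosome, where they numbered from 4814 on chromosome 18 to 19838 on chromosome 1. The 8 were 4.15% of X regions, against 3.72% for the members on the autosomes. They are given because no comparison of the report uses chromosome X, and the 2 shares rest on very unequal numbers of regions. All 8 lacked AG replicate 1 and none lacked AG replicate 2, and 2 X regions were in both AG libraries and exactly 1 GG library. Whether the AG embryos carried an X is not given in the sources used here, and its part in these counts was not tested.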

How the results depend on the processing

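Of 106 recomputed values, 42 counted as kept, 57 as moved and 7 as turned. Kept meant within 1.5 times for member numbers, and within the 95% interval of the reported value for shares, widths, ranks and ratios. The AG minus GG flank difference was judged by its sign alone. AG replicate 1 minus AG replicate 2 flank differences were judged by the SD between the 2 GG libraries. That SD was 0.0018 (lacking AG replicate 1) and 0.0027 (lacking AG replicate 2), so small changes counted as moved. The cause of the changes was not tested. In the higher-scoring 50% of each list, at equal number, at equal covered length and with 50% of the region covered, in that order, the ratio of members lacking AG replicate 1 to AG replicate 2 was 0.902, 0.595, 0.549 and 0.770, members over the mirror set 2.31, 2.0, 1.62 and 2.39, median width 2313, 2100, 2190.5 and 2097 bp, and the missing AG library was within 1 kb of 8.54, 12.03, 11.96 and 57.8% of members (under the last setting absence includes a hotspot over less of the region). AG replicate 1 minus AG replicate 2 flank log2 differences were -0.0021, -0.017, 0.0034 and 0.12 for members lacking AG replicate 1 and 0.23, 0.17, 0.16 and 0.27 for those lacking AG replicate 2. Members numbered 5001 in the higher-scoring 50% and 5400 at equal covered length. The chromosome 19 share was 5.52% in the higher-scoring 50% and 5.94% with 50% covered, and the chromosome 5 share 4.11% at equal covered length and 3.98% with 50% covered. Merging within 150 bp gave a width of 1988.5 bp and 11.96% within 1 kb, with an AG flank difference of 0.078 for members lacking AG replicate 1. Without hotspots under 100 bp the AG differences were 0.084 and 0.26. Within 500 bp and 5 kb the missing library was found for 6.11% and 43.5%. In flanks of 5 and 50 kb the AG differences were 0.079 and 0.086 (lacking AG replicate 1) and 0.31 and 0.14 (lacking AG replicate 2), and without scaling they turned to -0.23 and -0.062. The AG minus GG flank difference turned to 0.060 in 50 kb flanks, to 0.016 without GG replicate 2 and, in a setting added after the data were seen, to 0.21 outside regions in both GG and not both AG libraries. In each of these the divisor counts members, which the flanks leave out, so the sign alone does not show which group was higher.

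Leaving out 1 library loosens the rule, since fewer libraries must hold a region. Without an AG library the set takes in regions of all 4 libraries, and without a GG library pairs of 1 AG and 1 GG library. Members then ranged from 14512 to 17593, width from 1374 to 2471 bp, the chromosome 19 share from 3.87 to 7.001%, the chromosome 5 share from 3.91 to 5.04%, the ratio of members by missing library from 0.943 to 0.957, the share within 1 kb from 13.8 to 14.2%, the AG minus GG flank difference from -0.14 to 0.016, and the AG flank differences from 0.034 to 0.068 (lacking AG replicate 1) and from 0.20 to 0.23 (lacking AG replicate 2). With the replicate number as a block the AG minus GG flank difference was -0.12 (exact sign-flip p = 0.500, the smallest possible). Same-numbered libraries did not deviate together (correlation of -0.098 over 2678 windows of 1 Mb), so the numbers were not taken as pairs. The split by missing library, its flank differences and the share within 1 kb have no value without an AG library, nor the ratio to the mirror set without any library. Annotation was not run.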
